A study of Saccharomyces cerevisiae with 22 samples.

Results

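The RNA described here came from vacuole fractions of rapamycin-treated yeast (*Saccharomyces cerevisiae*), and 4 of the 22 libraries of the series hold it: 2 from the *rny1*Δ *atg2*Δ strain and 2 from the *rny1*Δ strain. These libraries were chosen by their labels for genotype, treatment and fraction. Both strains are labelled X2180-1a and carry *rny1*Δ::natNT2, and the double mutant also carries *atg2*Δ::kanMX6. Cells were grown in YPD with 0.2 µM rapamycin for 3 h, and vacuoles were floated out of the lysate by ultracentrifugation. The study describes the replicates as independent experiments. Beside them stand 4 total-lysate libraries from rapamycin-treated cells (2 per strain) and 2 vacuole libraries from growing cells without rapamycin (1 per strain).

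Rapamycin inhibits TORC1 and thereby switches on autophagy, in which autophagosomes enclose cytoplasm and fuse with the vacuole, the lytic compartment of yeast. Atg2 is a lipid transfer protein needed for the autophagosome membrane to grow, and cells without it do not complete autophagy. Rny1 is the T2-type RNase of the vacuole, so deleting it lets RNA that reaches the vacuole persist. The comparison therefore asks which mRNAs make up the RNA of a vacuole fraction when autophagy is blocked by *atg2*Δ, set against the same fraction when autophagy can proceed. All values are shares of a library (CPM, a library's counts scaled to the same total and corrected by TMM). The summed levels of gene groups are CPM without TMM. The amount of RNA per vacuole was thus not measured here. A lower share cannot be told apart from a gain of other mRNAs, nor a higher share from a loss of others. On gels, the study hardly detected mRNA in vacuole fractions of *atg2*Δ cells. Its methods name RNase I treatment of vacuole fractions for other experiments and do not mention it for those sequenced. A rise below is thus a larger share, not a measured gain of mRNA inside vacuoles.

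The *rny1*Δ *atg2*Δ vacuole libraries held 22097523 and 535462 counts on genes, and the *rny1*Δ vacuole libraries held 10868832 and 13097522. Replicate 2 of *rny1*Δ *atg2*Δ is thus the shallow one. Without TMM, 3 counts there correspond to 5.60 CPM, against at most 0.276 CPM in the other vacuole libraries. On the TMM scale of the single genes below, 3 counts in the shallow library correspond to 6.51 CPM. The deleted gene separated the strains: *ATG2* (YNL242W, chrXIV:191324-196102 in R64) had 70 and 0 counts in *rny1*Δ *atg2*Δ vacuoles and 1101 and 1353 counts in *rny1*Δ vacuoles. *RNY1* (YPL123C), deleted in both strains, still had 323 and 9 counts in *rny1*Δ *atg2*Δ vacuoles and 416 and 418 counts in *rny1*Δ vacuoles, so its counts do not check that label. The label X2180-1a names a MATa strain, whereas the strain list of the study gives both strains an X2180-1B background, which is MATα. *STE3*, the receptor made by MATα cells, had 3169 and 85 counts in *rny1*Δ *atg2*Δ vacuoles and 2071 and 2421 counts in *rny1*Δ vacuoles, and *STE2*, the receptor of MATa cells, had 91 and 4 counts against 88 and 109 counts.

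The 2 strains had vacuole RNA of clearly different makeup. Of 5708 protein-coding genes tested, 599 (10.5%) were higher and 867 (15.2%) were lower in *rny1*Δ *atg2*Δ than in *rny1*Δ vacuoles, by edgeR's quasi-likelihood test (log2 change of 1 or more in either direction, adjusted p under 0.01). The higher mRNAs took 40.0% and 38.5% of the counts in the *rny1*Δ *atg2*Δ libraries, against 17.0% and 18.2% in the *rny1*Δ libraries. The lower mRNAs took 4.36% and 4.82% of the counts in *rny1*Δ *atg2*Δ, against 16.0% and 15.3% in *rny1*Δ. Scaled by library totals alone, the median over all genes moved to -0.43 on the log2 scale, from -0.03 with TMM, and the calls split into 234 higher and 1531 lower mRNAs. Changes below are relative to the TMM median. Counts of called genes in the gene groups below are to be read against the 10.5% higher and 15.2% lower over all genes.

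The strain difference was far larger than the spread between replicates. Over 2919 genes with at least 20 counts in each of the 4 libraries, the SD of the log2 difference was 0.288 between the *rny1*Δ *atg2*Δ replicates and 0.145 between the *rny1*Δ replicates. Between libraries of different strains it lay between 0.812 and 0.909 in the 4 possible pairs. Over 2911 genes with at least 20 counts in each of the 12 mutant libraries, the SD between strains was 0.293 and 0.281 in total lysates. Between the vacuole fractions of growing cells it was 0.138 over the same 2911 genes.

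Few genes passed both thresholds between the strains in whole cells, although 194 had an adjusted p under 0.01 by the same edgeR test. In total lysates after rapamycin, 20 of 5702 genes (0.351%) were higher and 10 (0.175%) were lower in *rny1*Δ *atg2*Δ. Without *rny1*Δ replicate 1 these counts became 33 higher and 20 lower, without *rny1*Δ *atg2*Δ replicate 2 they became 31 and 14, and without *rny1*Δ replicate 2 they became 20 and 5. Of the mRNAs called higher in *rny1*Δ *atg2*Δ vacuoles, 12 were also called higher in the total lysates, which is 2.00% of the vacuole list and 60% of the total-lysate list. Of those called lower in vacuoles, 3 were also called lower in lysates, 0.346% of the vacuole list and 30% of the lysate list. The median log2 change in lysates was 0.10 for the mRNAs higher in vacuoles and -0.10 for those lower in vacuoles. A test of the vacuole difference minus the lysate difference, over all 8 rapamycin libraries, called 608 genes of 5739 (10.6%) higher and 761 (13.3%) lower in *rny1*Δ *atg2*Δ. Without replicate 1 of *rny1*Δ *atg2*Δ, the second count fell to 328.

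**Figure D1:**
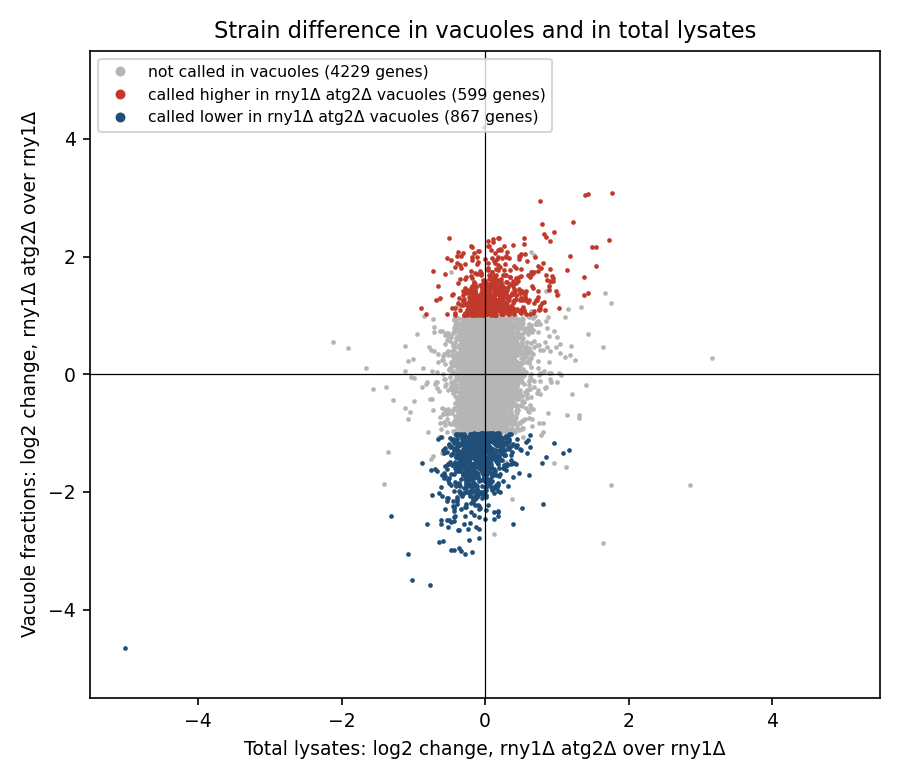
Log2 change (*rny1*Δ *atg2*Δ over *rny1*Δ) in vacuole fractions (vertical axis) and in total lysates (horizontal axis) after rapamycin, 1 point per gene measured in both. The 599 genes called higher and the 867 called lower in vacuoles spread along the vertical axis while most stay near 0 on the horizontal axis; the point at the lower left is *ATG2*.

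Vacuole fractions of growing cells differed less between the strains. With 1 vacuole library per strain and no test, 10 of 5662 genes (0.177%) lay at a log2 ratio of 1 or more and 10 (0.177%) at -1 or less. The mRNAs called higher in rapamycin-treated *rny1*Δ *atg2*Δ vacuoles had a median log2 ratio of -0.04 in growing vacuoles, and those called lower had a median of 0.02. Vacuole RNA of *rny1*Δ *atg2*Δ cells was also closer to the lysate of its own strain. Across genes the Spearman correlation of vacuole with lysate was 0.94 and 0.92 in the *rny1*Δ *atg2*Δ replicates and 0.84 and 0.83 in the *rny1*Δ replicates, and the SD of the log2 vacuole/lysate ratio was 0.493 and 0.519 in *rny1*Δ *atg2*Δ against 0.768 and 0.794 in *rny1*Δ. These correlations are across genes within single libraries, which share each gene's length and base composition.

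The largest rise was seen for a pair of neighbouring genes on chromosome X. *PRM10* (YJL108C, chrX:217705-218856), a predicted membrane protein, had 317 and 302 CPM in *rny1*Δ *atg2*Δ vacuoles, against 40.1 and 34.8 CPM in *rny1*Δ vacuoles, a log2 change of 3.06 ± 0.11 (SE, adjusted p = 1.9e-11). *YJL107C* (chrX:218853-220016), which overlaps it, had 248 and 234 CPM against 32.9 and 26.5 CPM, a log2 change of 3.05. The annotated spans overlap only at chrX:218853-218856, and whether 1 transcript carries both genes was not tested. Both genes also rose in total lysates, with log2 changes of 1.44 and 1.39, and the difference between fractions remained at 1.66 for *PRM10* (adjusted p = 4.8e-06).

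The next largest rise was that of *FIT1* (YDR534C), a cell wall mannoprotein that retains iron siderophores. It had 82.8 and 86.8 CPM in *rny1*Δ *atg2*Δ vacuoles, against 10.8 CPM in each *rny1*Δ library. *STL1* (YDR536W), the glycerol symporter, had 749 and 554 CPM against 109 and 115 CPM. *PUT4* (YOR348C), the proline permease, had 950.5 and 740.2 CPM against 159.7 and 162 CPM. Their log2 changes were 2.95, 2.58 and 2.42, and in each case the 2 strains did not overlap. In lysates these 3 mRNAs had smaller log2 changes of 0.77, 1.23 and 0.95. *MNN4*, which governs mannosylphosphate transfer to cell wall mannans, rose by 2.38 and *YGR067C* by 2.56. *ADH2*, the alcohol dehydrogenase repressed by glucose, had 278 and 295 CPM against 57.2 and 56.2 CPM, and rose by 2.32.

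*FAS1* and *GLT1* were the most abundant of the 10 genes with the largest rise. *FAS1* (YKL182W, chrXI:100671-106826), the β subunit of fatty acid synthase, had 10860.2 and 9562 CPM in *rny1*Δ *atg2*Δ vacuoles, against 2119.7 and 1972 CPM in *rny1*Δ vacuoles, a log2 change of 2.32 ± 0.10 (adjusted p = 5.4e-11). *GLT1* (YDL171C, chrIV:149203-155640), glutamate synthase, had 10409 and 9197 CPM against 2012 and 1949 CPM, a log2 change of 2.31 ± 0.10 (adjusted p = 5.3e-11). In total lysates the log2 changes of *FAS1* and *GLT1* were 0.19 each, with adjusted p-values of 0.43 and 0.46.

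**Figure D2:**
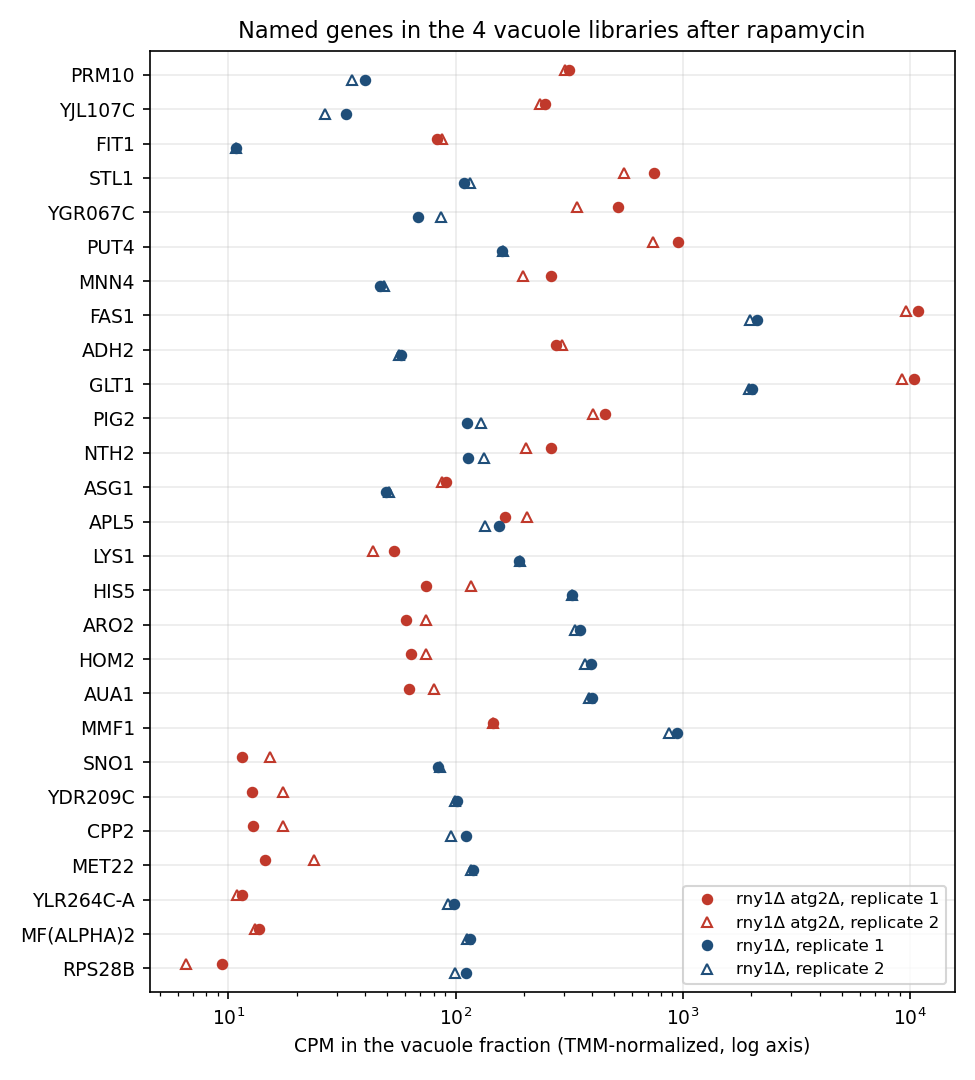
CPM (log axis) in each of the 4 vacuole libraries for the 10 genes with the largest rise, the 9 with the largest fall beside *ATG2*, and the 8 genes that the study names. Red points are the *rny1*Δ *atg2*Δ libraries and blue points the *rny1*Δ libraries; the strains do not overlap for any gene shown, and the gap is smallest for *APL5*.

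Apart from *ATG2* itself, the deepest fall was that of *RPS28B* (YLR264W, chrXII:673131-673334), a small ribosomal subunit protein. It had 9.36 and 6.51 CPM in *rny1*Δ *atg2*Δ vacuoles, against 111 and 99.1 CPM in *rny1*Δ vacuoles, a log2 change of -3.50 ± 0.14 (adjusted p = 3.3e-11). The 6.51 CPM rests on 3 counts in the shallow library, and the 9.36 CPM on 170 counts. Its annotated neighbour *YLR264C-A* had 11.5 and 10.9 CPM against 98.3 and 92.4 CPM and changed by -3.05. *MF(ALPHA)2*, a precursor of the α-factor pheromone, had 13.6 and 13 CPM against 116 and 112 CPM and changed by -3.06. In the shallow library *YLR264C-A* had 5 counts and *MF(ALPHA)2* had 6 counts. In lysates *RPS28B* and *YLR264C-A* were also called lower, with log2 changes of -1.02 and -1.07, whereas *MF(ALPHA)2* changed by -0.29 (adjusted p = 0.23).

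*MET22* (YOL064C), the phosphatase that removes the 3′ phosphate from phosphoadenosine phosphate in sulfur assimilation, had 14.4 and 23.9 CPM in *rny1*Δ *atg2*Δ vacuoles, against 119 and 117 CPM in *rny1*Δ vacuoles. It fell by 2.99 on the log2 scale, or by 2.31 without replicate 1 of *rny1*Δ *atg2*Δ. *SNO1*, of pyridoxine metabolism, had 11.5 and 15.2 CPM, the latter from 7 counts, against 84 and 85.1 CPM. *MMF1*, a mitochondrial matrix protein, had 147 and 145 CPM against 939.6 and 873 CPM. These 2 mRNAs changed by -2.86 and -2.63. The remaining genes of the list, the overlapping pair *CPP2* and *YDR209C* and *AUA1*, which overlaps *WWM1*, changed by -2.99, -2.96 and -2.60 and may carry reads of their neighbours.

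Among the metabolic pathways listed, amino acid biosynthesis, which is also the largest list, had the most mRNAs lower in *rny1*Δ *atg2*Δ vacuoles. Of 80 genes tested, 36 fell and 1 rose, where 15.2% of all genes fell and 10.5% rose. The median log2 change was -0.83, against -0.03 over all genes. No member was called in total lysates, where the median was -0.17. *HOM2* (YDR158W, chrIV:770357-771454), aspartate semialdehyde dehydrogenase on the way to threonine and methionine, had 63.6 and 73.8 CPM in *rny1*Δ *atg2*Δ vacuoles, against 393 and 369 CPM in *rny1*Δ vacuoles. Its log2 change was -2.55 ± 0.12 (adjusted p = 7.7e-11), and -1.91 beyond the change in lysates (adjusted p = 1.1e-07). In lysates *HOM2* changed by -0.61 (adjusted p = 0.0023 by the edgeR test), short of the threshold of 1. *ARO2*, chorismate synthase, had 60.3 and 73.8 CPM against 352 and 335 CPM. *HIS5*, histidinol phosphate aminotransferase, had 73.7 and 117 CPM against 326 and 324 CPM. *LYS1*, saccharopine dehydrogenase, had 53.3 and 43.4 CPM against 189.9 and 191 CPM. The log2 changes of these 3 were -2.47, -2.02 and -1.86, at lysate changes of -0.50, -0.23 and -0.23. The single member that rose was *GLT1*, which is also the most abundant of the list. Without replicate 1 of *rny1*Δ *atg2*Δ, 26 members fell.

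Most ribosomal protein mRNAs were lower. Of 80 genes of the large subunit, 46 fell and 0 rose, with a median of -1.09, and of 56 genes of the small subunit, 44 fell and 0 rose, with a median of -1.24. Without TMM, the summed level of the large subunit was 5401 and 6309 CPM in *rny1*Δ *atg2*Δ vacuoles, against 12549 and 11905 CPM in *rny1*Δ vacuoles. These sums are on another scale than the log2 changes and single-gene CPM given here. For the small subunit the sums, also without TMM, were 2517 and 2926 CPM against 8333 and 7915 CPM. The members ranged widely: *RPL3*, the most abundant of the large subunit list, had 1028 and 1213 CPM against 1083 and 1070.4 CPM (log2 change 0.04, adjusted p = 0.73), and *RPL33B* had 8.81 and 19.5 CPM against 45.1 and 41.9 CPM. The call of *RPL33B* at -2.24 was lost without replicate 1 of *rny1*Δ *atg2*Δ, where its value was -1.15. In lysates 0 members of the large subunit and 1 of the small subunit, *RPS28B*, were called, at medians of -0.10 and -0.13. Many ribosomal proteins are encoded by near-identical gene pairs, and only uniquely aligned reads were counted, so single members of a pair are uncertain.

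Genes for making ribosomes, unlike those for ribosomal proteins, were seldom lower. Of 105 ribosome biogenesis genes tested, 16 rose and 1, *NOP19*, fell, with a median of 0.44. *UTP10*, a subunit of the small subunit processome, had 350.1 and 360.3 CPM in *rny1*Δ *atg2*Δ vacuoles, against 106 and 96.9 CPM in *rny1*Δ vacuoles, a log2 change of 1.8. *UTP20*, another processome subunit and the most abundant of the list, had 443 and 467 CPM against 138 and 137 CPM, a log2 change of 1.71. *NOP19* was called at -1.01, and no longer without replicate 1 of *rny1*Δ *atg2*Δ (-1.19) or without replicate 1 of *rny1*Δ (-0.95).

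Within the translation machinery the direction differed from factor to factor. Of 10 elongation factor genes tested, 4 rose and 1 fell. *YEF3*, the fungal elongation factor 3 that acts at the ribosome's E site, had 5357 and 5542 CPM in *rny1*Δ *atg2*Δ vacuoles, against 2079.7 and 1999 CPM in *rny1*Δ vacuoles, and *EFB1*, the exchange factor subunit of elongation factor 1, had 229 and 217 CPM against 812 and 773 CPM. Their log2 changes were 1.42 and -1.81, with 1.62 for *HEF3*, the paralog of *YEF3*. The other 2 that rose, *EFT1* and *EFT2*, named after their values were seen, encode identical copies of elongation factor 2. Reads that align to both genes were not counted, so their single values are uncertain. Of 25 initiation factor genes, 1 rose and 6 fell, where 10.5% of all genes rose and 15.2% fell. *CDC33*, the cap-binding protein eIF4E, had 68.7 and 78.1 CPM against 230.0 and 213 CPM and changed by -1.66, while *PAB1*, the poly(A)-binding protein, had 779 and 794 CPM against 866 and 862 CPM (log2 change -0.14, adjusted p = 0.22). Of 21 cytosolic aminoacyl-tRNA synthetase genes, 3 fell and 0 rose, a share of lower mRNAs near the 15.2% over all genes. The lowest was *TYS1*, for tyrosine, with 55.6 and 47.8 CPM against 249.9 and 240.0 CPM and a log2 change of -2.16.

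Mitochondrially encoded mRNAs were higher as a group in *rny1*Δ *atg2*Δ vacuoles. Of the 8 genes for respiratory chain subunits, ATP synthase subunits and the ribosomal protein Var1, 7 rose and 0 fell, with a median log2 change of 1.91. *COX2*, a cytochrome c oxidase subunit, had 865 and 1209 CPM in *rny1*Δ *atg2*Δ vacuoles, against 234 and 271 CPM in *rny1*Δ vacuoles. *COX3* had 544 and 732 CPM against 118 and 153 CPM. Their log2 changes were 2.00 and 2.18. The gene that was not called, *ATP8*, was near 0 in every library, with 0.991 and 0 CPM against 0.169 and 0.640 CPM (log2 change 1.16, adjusted p = 0.12).

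All 19 mitochondrially encoded gene rows together took 0.843% and 1.23% of counts in *rny1*Δ *atg2*Δ vacuoles, against 0.291% and 0.349% in *rny1*Δ vacuoles, and 18 of them rose. In total lysates they took 3.82% and 4.12% of counts in *rny1*Δ *atg2*Δ, against 3.94% and 5.85% in *rny1*Δ, and no member of the list of 8 was called. In growing vacuoles their share was 0.0159% in *rny1*Δ *atg2*Δ and 0.0166% in *rny1*Δ. RNA of another organelle thus moved with the strain difference in the rapamycin vacuole fractions, and its part in the other results was not tested. Leaving mitochondrially encoded genes out of the TMM step gave 554 higher and 938 lower genes.

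Among nuclear mRNAs for mitochondrial ribosomal proteins and for the respiratory chain, more fell than rose, where 15.2% of all genes fell and 10.5% rose. The tricarboxylic acid cycle did not lean this way: of 13 genes tested, 2 rose and 1 fell (median -0.01). Its highest was *KGD1* at 1.43 and its lowest *IDH2* at -1.01. Of 71 mitochondrial ribosomal protein genes tested, 1 rose and 17 fell (median -0.38). The gene that rose, *RML2*, had 65.4 and 36.9 CPM in *rny1*Δ *atg2*Δ vacuoles, against 29.9 and 29.8 CPM in *rny1*Δ vacuoles, and its log2 change was 1.07 with all libraries but 0.30 without replicate 1 of *rny1*Δ *atg2*Δ, 0.97 without replicate 1 of *rny1*Δ and 0.96 without its replicate 2. *MRPL50* had 16.8 and 26 CPM against 74.4 and 72.1 CPM and changed by -2.09, or by -1.49 without replicate 1 of *rny1*Δ *atg2*Δ. Of 39 nuclear genes of the respiratory chain and ATP synthase, 3 rose and 17 fell (median -0.93). The large flavoprotein subunit of succinate dehydrogenase, *SDH1*, had 1343 and 1229 CPM against 421 and 473 CPM and rose by 1.53. The small ATP synthase subunit *ATP20* had 24.8 and 34.7 CPM against 109.8 and 95.2 CPM and changed by -2.01. The other 2 that rose, *CYC7* and *NDI1*, named after their values were seen, had log2 changes of 1.43 and 1.31.

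Enzymes of reserve carbohydrates were higher. Of 17 glycogen genes tested, 9 rose and 0 fell, with a median log2 change of 1.34, and of 7 trehalose genes, 6 rose and 0 fell, with a median of 1.63. *GAC1*, a regulatory subunit that targets protein phosphatase 1 to glycogen synthase, had 864 and 790.1 CPM in *rny1*Δ *atg2*Δ vacuoles, against 178 and 206 CPM in *rny1*Δ vacuoles. *GPH1*, glycogen phosphorylase, had 6134 and 5164 CPM against 1589 and 1735 CPM. *TSL1*, the regulatory subunit of trehalose phosphate synthase, had 7170.0 and 5883 CPM against 1484 and 1665 CPM. Their log2 changes were 2.12, 1.77 and 2.05, at lysate changes of 0.23, 0.18 and 0.13 that were not called. *PIG2*, a putative targeting subunit of the same phosphatase, had 452 and 402 CPM against 112 and 129.8 CPM and rose by 1.85. The 2 neutral trehalases lay at the threshold: *NTH2* was called at 1.00, but not in 11 of the 16 other settings run, where it lay between 0.47 and 1.00. Among these were the settings without replicate 1 of *rny1*Δ *atg2*Δ (0.73), without replicate 1 of *rny1*Δ (0.84), with DESeq2 (0.96), with the replicate block (0.98) and with the length correction described below (0.47). *NTH1*, at a log2 change that also rounds to 1.00, was not called.

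Heat shock and antioxidant genes that were called also rose. Of 27 tested, 7 rose and 0 fell, with a median of 0.73. *CTT1*, cytosolic catalase, had 8627 and 7621 CPM in *rny1*Δ *atg2*Δ vacuoles, against 1718 and 1833 CPM in *rny1*Δ vacuoles, a log2 change of 2.20. *HSP104*, the protein disaggregase, had 8367 and 7795 CPM against 2909.6 and 3121 CPM, a log2 change of 1.42. The member with the lowest value, the short *SOD1* for superoxide dismutase, had 860.2 and 849 CPM against 1539.7 and 1569 CPM (log2 change -0.86, not called). No member of the glycogen, trehalose or stress lists was called in lysates. In growing vacuoles the medians of the 3 lists were -0.27, -0.23 and -0.19.

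Glycolysis held mRNAs of both directions. Without TMM its summed level was 118412 and 123887 CPM in *rny1*Δ *atg2*Δ and 126456 and 118410 CPM in *rny1*Δ. These sums overlap only on that scale. The TMM factors, 0.86 and 0.90 in *rny1*Δ *atg2*Δ and 1.15 and 1.13 in *rny1*Δ, raise the former and lower the latter. Of 20 genes, 5 rose and 1 fell, and the median was 0.21, or -0.18 with library totals alone. *ENO1*, an enolase, had 9162 and 8696 CPM in *rny1*Δ *atg2*Δ vacuoles, against 3275 and 2987 CPM in *rny1*Δ vacuoles, while *TPI1*, triose phosphate isomerase, had 1243 and 1276 CPM against 3396 and 3164 CPM. Their log2 changes were 1.51 and -1.38. *TDH3*, the main glyceraldehyde phosphate dehydrogenase and the most abundant of the list, had 17663 and 18089 CPM against 18379 and 17725 CPM (log2 change -0.01, adjusted p = 0.89).

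mRNAs translated at the endoplasmic reticulum did not move one way. Of 52 plasma membrane transporter genes, 17 rose and 1 fell (median 0.62). The proton pump *PMA1* had 13663 and 12931 CPM in *rny1*Δ *atg2*Δ vacuoles, against 3891 and 3903 CPM in *rny1*Δ vacuoles, and rose by 1.77 ± 0.09 (adjusted p = 1.8e-10). The iron permease *FTR1* had 47.9 and 43.4 CPM against 122 and 117 CPM and changed by -1.33. Of 41 endoplasmic reticulum genes, 1 rose and 11 fell (median -0.34). *SEC72*, of the translocation complex, had 10 and 15.2 CPM against 42.1 and 40 CPM and changed by -2.01, *PDI1*, protein disulfide isomerase, changed by 0.22, and *PMT1*, a protein mannosyltransferase, was called at 1.13 but not without replicate 1 of *rny1*Δ *atg2*Δ (0.94). Of 51 cell wall and secreted protein genes, 7 rose and 2 fell (median 0.12, or -0.29 with library totals alone), where 10.5% of all genes rose and 15.2% fell. The wall protein *CCW12*, the most abundant of these, had 7475 and 7643 CPM against 16156 and 16112 CPM and changed by -1.09, while *PIR3*, another wall protein, had 461 and 497 CPM against 154 and 158 CPM and changed by 1.61.

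The nitrogen catabolite repression targets, genes switched on when preferred nitrogen sources run out, were also divided, with 5 that rose and 7 that fell of 28 (median -0.11). *PUT4* was the highest. *DAL80*, a GATA repressor of this group, had 12.6 and 8.68 CPM in *rny1*Δ *atg2*Δ vacuoles, against 52.1 and 52.7 CPM in *rny1*Δ vacuoles. *DAL80* changed by -2.07, and its 8.68 CPM rests on 4 counts in the shallow library. Of 10 histone genes, 5 fell and 0 rose (median -1.06). *HHT2*, for histone H3, had 381 and 352 CPM against 1003 and 971 CPM and changed by -1.41. Of 36 proteasome genes, 3 rose and 10 fell (median -0.55). The large base subunit *RPN2* had 883 and 840.1 CPM against 315 and 322 CPM, a log2 change of 1.44, and the small lid subunit *SEM1* had 20.6 and 17.4 CPM against 115 and 103 CPM, a log2 change of -2.42. Of 40 autophagy genes, 4 rose and 3, *ATG2* among them, fell (median 0.23, or -0.17 with library totals alone), where 10.5% of all genes rose and 15.2% fell. *ATG39*, the receptor for autophagy of the nuclear envelope, rose by 1.31, at a lysate change of 0.56.

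**Figure D3:**
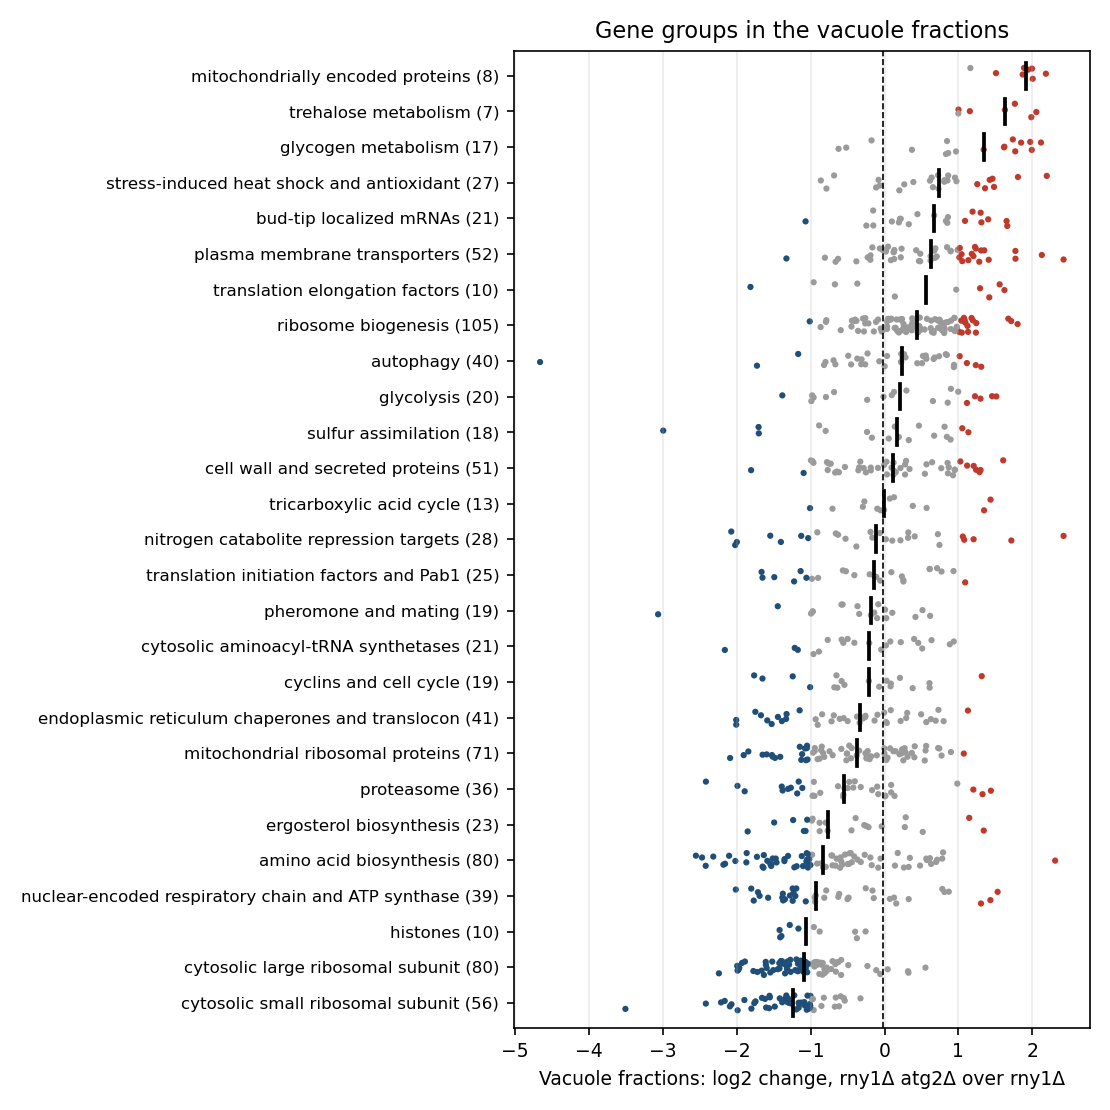
Log2 change in vacuole fractions (*rny1*Δ *atg2*Δ over *rny1*Δ) of every tested member of 27 gene groups, with the number of members in parentheses. Red points were called higher, blue points lower and grey points neither; black bars are group medians and the dashed line is the median over all genes. Ribosomal protein groups sit lowest, at medians of -1.24 and -1.09, and mitochondrially encoded genes highest, at 1.91.

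Length of the coding sequence went with the strain difference over the whole range of genes. In 5 bins of equal size, the median log2 change in vacuoles was -0.88 for 16 to 201 codons, -0.40 for 202 to 331, -0.07 for 332 to 479, 0.29 for 480 to 696 and 0.57 for 697 to 4901 codons. In the shortest bin 489 of 1148 genes fell and 49 rose, and in the longest bin 5 of 1139 fell and 269 rose. The medians of the same bins lay between -0.03 and 0.03 in total lysates and between -0.01 and 0.01 in growing vacuoles. The median length was 631 codons for the genes called higher and 185 codons for those called lower, against 399 codons over all genes tested.

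Across 2919 genes, the Spearman correlation of coding length with the log2 difference was between 0.47 and 0.54 for each pairing of a *rny1*Δ *atg2*Δ with a *rny1*Δ vacuole library. It was 0.21 between the *rny1*Δ *atg2*Δ replicates and -0.08 between the *rny1*Δ replicates. Over 2911 genes, it was 0.04 and -0.0035 between strains in lysates and 0.11 in growing vacuoles. These are descriptions over genes, which are not independent, and whether length itself or a feature that goes with it sets the difference was not tested.

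**Figure D4:**
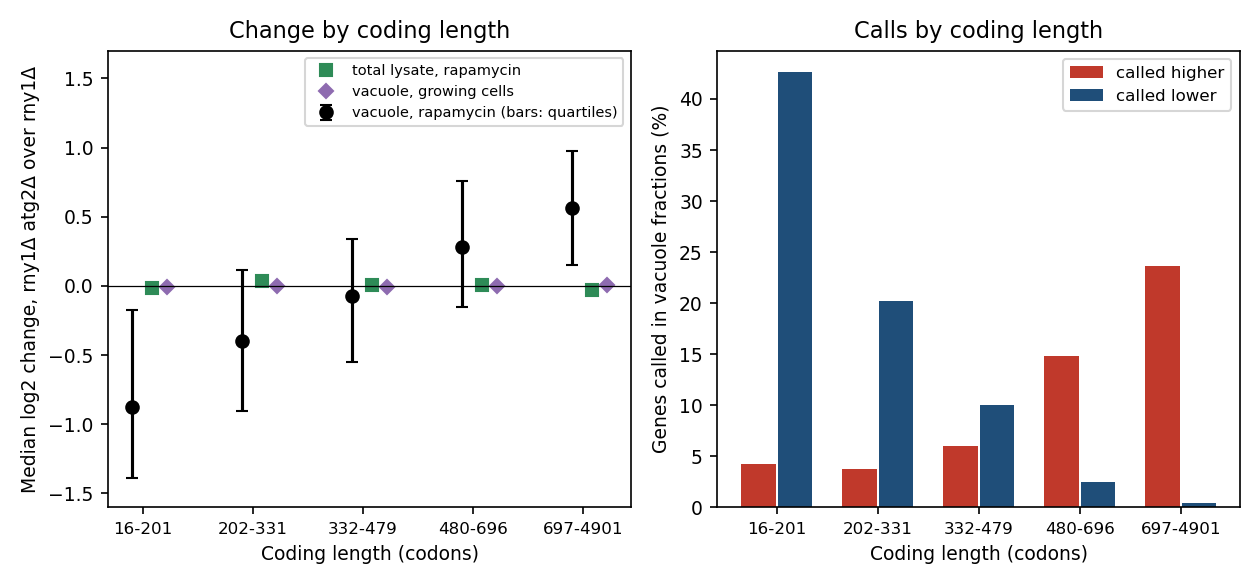
Left, median log2 change (*rny1*Δ *atg2*Δ over *rny1*Δ) in 5 bins of coding length, for vacuoles after rapamycin (circles, with bars to the quartiles of genes), lysates after rapamycin (squares) and vacuoles of growing cells (diamonds, 1 library per strain). Right, percent of genes called higher and lower in rapamycin vacuoles, which runs from 42.6% called lower in the shortest bin to 23.6% called higher in the longest.

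A smooth trend on log coding length in each library was then removed, which left 410 genes higher (7.18%) and 491 lower (8.6%). Of the original calls, 265 of the higher and 361 of the lower remained. The median over all genes was then -0.11, against which the group medians below are to be read. The gene groups separated under this correction. Amino acid biosynthesis, with a median length of 436 codons, kept a median of -0.91 with 35 members lower. *HOM2* stood at -2.48 and *ARO2* at -2.42. The ribosomal protein groups, with median lengths of 143 and 134.5 codons, had medians of -0.38 and -0.57 with 8 and 9 members lower. Histones had a median of -0.42 with 0 lower, and 2 ribosome biogenesis genes were higher where 16 had been. Of the reserve carbohydrate lists, 8 glycogen and 3 trehalose genes were higher, and 10 stress genes were higher. Of the mitochondrially encoded genes 7 were higher, at a median of 2.11. *FAS1* and *GLT1* stood at 1.31 and 1.28. The nuclear lists for mitochondrial ribosomal proteins and for the respiratory chain and ATP synthase no longer leaned to lower mRNAs by their calls. The former had 3 higher and 3 lower genes (median -0.06), and the latter 3 higher and 4 lower (median -0.20). Of the plasma membrane transporters 4 were higher and 2 lower (median 0.23), and of the elongation factors 0 were higher and 1 lower, with *YEF3* at 0.75 and *HEF3* at 0.95. Of the cytosolic aminoacyl-tRNA synthetases 0 were higher and 6 lower, and of the autophagy genes 3 were higher and 2 lower. Beyond the lysate change, the same correction left 350 genes higher (6.1%) and 384 lower (6.69%).

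The study chose 8 genes for its own assays of vacuolar mRNA, and since they were picked on these samples their direction is not independent evidence. Of these, *HOM2*, *ARO2*, *HIS5* and *LYS1* fell and *PIG2* rose in *rny1*Δ *atg2*Δ vacuoles, and *NTH2* lay at the threshold. *ASG1*, a zinc cluster protein, had 90.3 and 86.8 CPM in *rny1*Δ *atg2*Δ vacuoles, against 49.6 and 50.7 CPM in *rny1*Δ vacuoles. *APL5*, a subunit of the AP-3 adaptor complex, had 165 and 206 CPM against 155 and 134 CPM. Neither was called, with log2 changes of 0.84 and 0.27, although beyond the lysate change *ASG1* was called at 1.19 (adjusted p = 1.9e-06). With the length correction they stood at 0.21 and -0.35, and with library totals alone *APL5* stood at -0.14, so the direction of *APL5* depended on the scaling.

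A readout from other libraries differed between the 2 lists. In WT cells, the change in ribosome footprints per mRNA at 3 h of rapamycin, set against growing cells, was available for genes with at least 20 counts in each WT library (1 library pair at 3 h and 2 from growing cells). Its median was -0.31 on the log2 scale for 412 genes called higher in *rny1*Δ *atg2*Δ vacuoles and 0.46 for 720 genes called lower, against -0.06 over 4595 genes. This measure also went with length, since the median over all measured genes was 0.59 in the shortest bin and -0.46 in the longest. Within the bins, from the shortest to the longest, it was 0.42 for 6 genes called higher and 0.71 for 407 called lower, -0.04 for 15 and 0.28 for 191, -0.01 for 36 and 0.10 for 96, -0.16 for 117 and -0.07 for 21, and -0.43 for 238 and -0.60 for 5. The difference within each bin was smaller than that between the whole lists, and in the longest bin, with only 5 genes called lower, it ran the other way.

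Some of the named calls rested on 1 library. Of 102 genes named by the rule, 76 were called in vacuoles, and 13 of those calls were lost without replicate 1 of *rny1*Δ *atg2*Δ, which leaves the shallow library alone for that strain. Beside those given above these were *IDH2* (-0.93), *MET10* (0.88), *TIF4632* (0.97), *PRB1* (0.98), *TIR3* (-1.41), *GLN1* (-0.80), *PCL1* (-1.02) and *ERG2* (-0.76), each with its log2 change in that setting. Leaving out another library also cost 4 of these calls, those of *NTH2*, *RML2*, *NOP19* and *PRB1*, the last at 0.96 without replicate 1 of *rny1*Δ.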

How the data were processed

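Members, gene lists and tests were chosen with earlier results of these data known. The authors removed rRNA reads with Bowtie2, aligned the rest to the S288C genome (sacCer3) with TopHat2 2.0.9 and deposited unnormalized HTSeq 0.6.1 counts per gene. Per the labels, CASAVA 1.8 and STAR 2.7.0a were also used in the series. The strand setting is not given in the sources used here. Only uniquely aligned reads were counted, and 51.8% and 47.4% of reads in *rny1*Δ *atg2*Δ vacuoles, against 59.7% and 60.8% in *rny1*Δ vacuoles, aligned to several places. The rows without a gene were left out. For WT cells the authors deposited counts on coding sequences with their length in codons.

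Of 6696 gene rows, 6008 matched the R64 annotation and 6005 are protein-coding. Protein-coding genes with at least 10 counts over the libraries of a fit were tested with edgeR 4.0.16 (TMM, quasi-likelihood, Benjamini-Hochberg; R 4.3.3), group only, with 2 residual degrees of freedom in the vacuole fit, 2 in the lysate fit and 4 in the fit of both. Changes are *rny1*Δ *atg2*Δ over *rny1*Δ; growing vacuoles were compared by CPM with a prior count of 2. Replicates differed beyond sampling noise (chi-square per degree of freedom 2.24 in *rny1*Δ *atg2*Δ and 10.4 in *rny1*Δ). This measure grows with depth and does not rank the strains. The SD of the log2 difference between replicates was 0.288 in *rny1*Δ *atg2*Δ and 0.145 in *rny1*Δ. Named are the deleted genes, the 8 genes the study names, the 10 called genes with the largest and the 10 with the smallest change (50 CPM or more in both libraries of the higher strain), and in each gene list the highest, the lowest and the most abundant member. On simulated data, the vacuole fit called 100 of 100 genes with a log2 change of 1.5 and 100 of 100 with a change of 2, and made 0 false calls. The changed genes there had at least 100 counts, rises and falls were balanced, and all genes shared the same spread. No length trend or shift in makeup was simulated, so this run cannot give the error rate of the real comparison. Alternatives concerned normalization, DESeq2 1.42.0, filters, depth, length, replicate blocks and single libraries. Intervals of depth cover counting error only.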

Additional observations from a re-analysis of the deposited data

Results flagged for a closer look

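The strain difference was not the same in vacuole fractions and in total lysates. By edgeR's interaction test of strain and fraction, 608 genes of 5739 (10.6%) had a higher log2 change in vacuoles than in lysates and 761 (13.3%) a lower one, among them *GLT1* (2.16, adjusted p = 1.1e-07) and *HOM2* (-1.91, adjusted p = 1.1e-07). With the length trend removed from each library, the same test gave 350 (6.1%) and 384 (6.69%) genes.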

How the results depend on the processing

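All 599 higher and 867 lower mRNAs of the vacuole comparison kept their direction with DESeq2, its size factors, library totals, the replicate block and no count filter. With the length correction 596 of the higher and 867 of the lower kept it. Without replicate 1 of *rny1*Δ *atg2*Δ, 587 and 856 were tested and kept it. The counts moved by more than 1.5 times in these cases: library totals alone gave 234 higher and 1531 lower, or 176 and 1559 beyond lysates; at least 10 counts in every library gave 359 higher of 4014 tested; libraries thinned to the smallest gave 506 lower; and the length correction gave 491 lower, or 350 higher and 384 lower beyond lysates. Leaving out 1 library gave 491 to 634 higher and 637 to 882 lower in vacuoles, 457 to 651 higher and 328 to 778 lower beyond lysates, and 16 to 33 higher and 5 to 20 lower in lysates. With a prior count of 0.5, 16 genes lay above 1 in growing vacuoles. Of the 76 named calls, the length correction lost 25 and library totals lost 9; 2 were lost with the replicate block. Replicate numbers did not pair every group: deviations of same-numbered libraries correlated at -0.18 between the strains' vacuoles, -0.27 between their lysates, and 0.33 and 0.45 between vacuole and lysate within *rny1*Δ *atg2*Δ and within *rny1*Δ. The replicate block gave 601 higher and 863 lower in vacuoles, 596 and 758 beyond lysates and 21 and 10 in lysates, and the crossed replicate block gave 561 and 775. The crossed block, the length correction and library totals beyond lysates, the lysate alternatives and the prior count of 0.5 were chosen after seeing the data. The shallow replicate 2 of *rny1*Δ *atg2*Δ, at 535462 counts, limits mRNAs under about 5.60 CPM without TMM, or 6.51 CPM with TMM.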

Other observations

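Among 538 tested gene rows that the R64 annotation does not list, 64 (11.9%) were higher and 71 (13.2%) were lower in *rny1*Δ *atg2*Δ than in *rny1*Δ vacuoles. Of 21 genes whose mRNAs are known to localize to the bud tip, 7 rose and 1, *ERG2*, fell (median 0.67). *IST2*, an ER-plasma membrane tether, had 1108 and 870.5 CPM in *rny1*Δ *atg2*Δ vacuoles, against 294 and 342 CPM in *rny1*Δ vacuoles, a log2 change of 1.66. Of 23 ergosterol genes, 2 rose and 6 fell (median -0.77). *HMG1*, HMG-CoA reductase, had 231 and 202 CPM against 86.1 and 90.5 CPM and rose by 1.34, and *ERG28*, a scaffold of sterol enzymes, had 36.9 and 21.7 CPM against 129 and 129.6 CPM and changed by -1.85, or by -2.57 without replicate 1 of *rny1*Δ *atg2*Δ. Of 19 cyclin and cell cycle genes, 1 rose and 4 fell, where 10.5% of all genes rose and 15.2% fell. The lowest, *PCL1*, changed by -1.76, or by -1.02 without replicate 1 of *rny1*Δ *atg2*Δ. The cyclin that rose, *CLN3*, had 117 and 104 CPM against 44.7 and 47.5 CPM, a log2 change of 1.32.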
